A study of Mus musculus with 6 samples.

Results

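The genes described here build the spindle poles of the mouse oocyte, which has no centrioles, and the protein domain that fills its spindle. The list was set by name, with earlier results of these data known. It holds 10 genes, Tacc3, Ckap5, Cltc, Pcnt, Cdk5rap2, Cep192, Plk4, Tpx2, Numa1 and Nek7, out of 53700 gene rows in each count table. All 10 were found by matching Ensembl identifiers to symbols, and all 10 passed the filter on low counts. The samples were pools of 10 oocytes at the germinal vesicle (GV) stage, before the spindle forms, from mice on the C57BL/6N background. The groups were 3 wild-type libraries (Zar +/+) and 3 Zar1 knockout libraries (Zar -/-), with no treatment named in the labels. The ZAR1 protein binds RNA in oocytes, and the study concerns the storage of maternal mRNA near mitochondria. The labels call the libraries biological replicates but do not say whether each pool came from its own animal, so the p-values reflect differences among these pools and may cover technical spread only.

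A centrosome nucleates microtubules from a pair of centrioles wrapped in pericentriolar material. Mouse oocytes lose their centrioles and instead gather pericentriolar proteins, among them pericentrin, CEP192 and CDK5RAP2, into many acentriolar microtubule organizing centres that are sorted to the poles when meiosis resumes. Around and within the poles lies a liquid-like meiotic spindle domain, which depends on TACC3 and also holds clathrin and the microtubule polymerase chTOG, the product of Ckap5.

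The libraries held 32126555 to 39148833 counts in genes. Zar1, the targeted gene, had 15245, 13612 and 12810 counts in wild type and 69, 96 and 226 in knockout, which matches the labels. Which part of Zar1 was removed is not stated in the labels. The knockout libraries were less alike than the wild-type libraries, and knockout replicate 3 stood apart from knockout replicate 2 on the second principal component (scores 49.6 and -34.9, 13.3% of the variance). Of 10 oocyte markers all had counts, with a summed level of 12400 to 13500 CPM (counts relative to each library's total, adjusted by TMM factors) in wild type and 13600 to 14900 in knockout. All 10 granulosa and cumulus markers also had counts, and their summed levels overlapped, at 54.7 to 62.0 and 48.7 to 61.3 CPM. Single markers were called in both directions: 6 oocyte markers higher and 2 lower (Bmp15 and Dazl), and, of 7 granulosa and cumulus markers tested, Has2 higher and Kitl lower. All 6 stroma and theca markers summed to at most 2.16 CPM (Pdgfra lower, of 2 tested) and 6 blood and immune markers to at most 2.28 CPM, with the globin genes Hbb-bs, Hba-a1 and Hba-a2 at 0. The part of other cells in the results was not tested. Levels are relative within a library, so a change of total mRNA per oocyte would not show, and fewer transcripts in every oocyte of a pool cannot be told apart from a loss in some of them.

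Stored oocyte mRNAs are controlled through short elements at the end of the transcript, so the annotated 3' ends of the members were read. Windows of 30 bases are printed for the genes whose levels fell and carry a signal there (Pcnt and Numa1) and for those with a cytoplasmic polyadenylation element close to the end (Pcnt, Ckap5 and Plk4). They are written 5' to 3' on the transcript strand, from GENCODE release M21 transcripts on GRCm38, with the polyadenylation signal (AATAAA) and the element (TTTTAT) in capitals.

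Pcnt: tttattctTTTTATtggcaaaacaAATAAA

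Numa1: tacttgtaAATAAAgtctatttttctccct

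Ckap5: taagagacTTTTATaAATAAAgtttgcatt

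Plk4: caaatacaTTTTATaaAATAAAcacagtgg

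The windows lie in the 3' UTR, from base 43 to base 14 counted back from the annotated end in Pcnt (chromosome 10), 38 to 9 in Numa1 (chromosome 7), 36 to 7 in Ckap5 (chromosome 2) and 44 to 15 in Plk4 (chromosome 3). Genome coordinates are not printed because the counts were made on mm39. A polyadenylation signal, AATAAA or ATTAAA on the transcript strand, was present in the last 40 bases of 8 of 10 members, against 75.8% of 12167 tested genes with a 3' UTR of at least 100 bases. The annotated ends of Tacc3 and Nek7 had none. A cytoplasmic polyadenylation element, TTTTAT or TTTTAAT on the transcript strand, was present in the last 100 bases of 3 of 10 members, against 19.5% of those genes. TTTTAAT can share its last bases with AATAAA. Of the 3 genes with the element near the end, Pcnt fell in the knockout while Ckap5 and Plk4 did not pass the test. These matches describe the annotated ends only, and the ends used in these oocytes were not measured.

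In oocytes without Zar1, 3 of the 10 mRNAs fell and 7 did not pass the test. Pcnt, Numa1 and Nek7 fell to 79.8%, 79.2% and 72.5% of the wild-type level, and none of the 10 rose (0 at an adjusted p under 0.05 in edgeR, DESeq2 or limma-voom, and 0 at an unadjusted p under 0.05 in edgeR). With GC and length offsets Ckap5 just passed as higher (edgeR adjusted p = 0.0496). Calls rest on the quasi-likelihood test of edgeR, with p adjusted by Benjamini-Hochberg over 16473 genes and a threshold of 0.05. Over all those genes 18.5% were called lower and 14.9% higher, so 3 of 10 lower and 0 of 10 higher are read against these shares. The excess of lower calls over all genes was not kept with upper-quartile factors (2811 higher and 2780 lower) or with GC and length offsets (2604 and 2587). The groups did not overlap for 4 of 10 members (Pcnt, Numa1, Nek7 and Plk4), against 47.8% of all genes tested. The median log2 fold change was -0.10 over the members and 0.00745 over all genes tested.

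**Figure D1:**
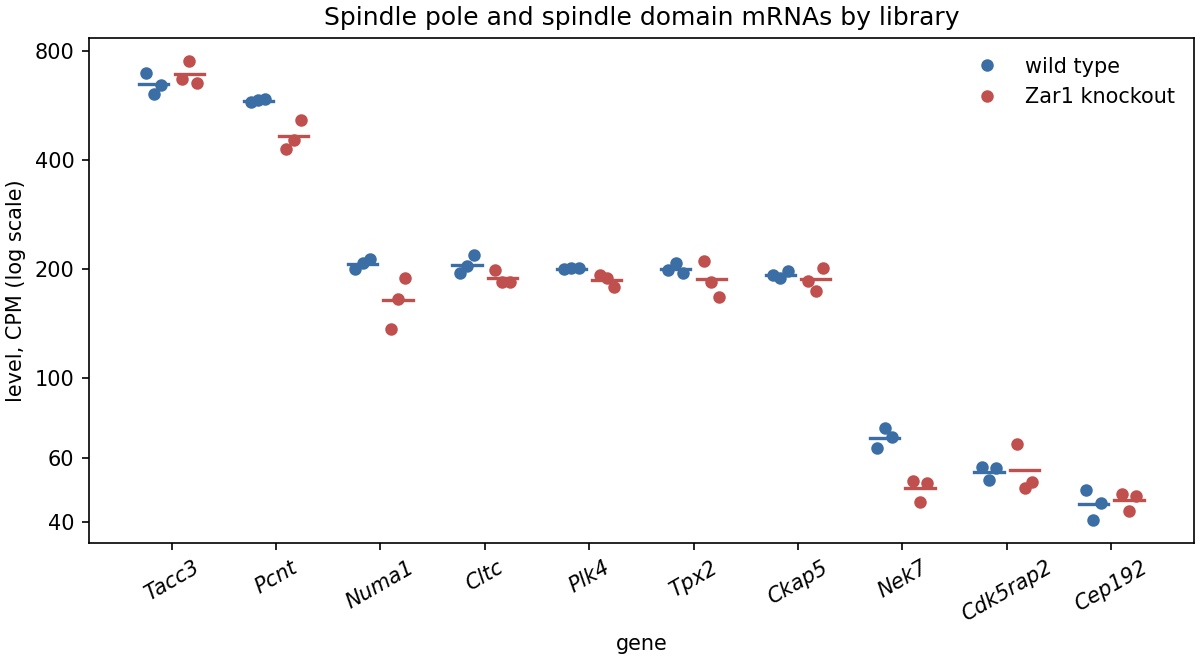
Level of each of the 10 genes in CPM on a log axis, with 1 point per library and a bar at the mean of each group (wild type in blue, Zar1 knockout in red, 3 libraries each). The knockout points of Pcnt, Numa1 and Nek7 lie below every wild-type point, as do those of Plk4 by a small margin, although Plk4 did not pass the test. Those of Cep192 lie within the wild-type range and those of Tacc3 overlap it, with knockout replicate 2 above it.

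Levels differed far more between the genes than between the genotypes. Per kilobase of annotated exon, Tacc3 stood highest in wild type at 183 ± 11.95 CPM per kb (mean ± SD, n = 3), above 98.2% of tested protein-coding genes. Pcnt followed at 48.1 ± 0.470 and Tpx2 at 42.8 ± 1.52 CPM per kb. Plk4 (29.3 ± 0.0435), Numa1 (26.1 ± 0.780), Cltc (24.2 ± 1.39) and Ckap5 (20.4 ± 0.483) formed a middle group, in which Numa1 and Cltc overlapped between libraries. Nek7 was lower, at 9.25 ± 0.582 CPM per kb. Cdk5rap2 and Cep192 were lowest, at 4.23 ± 0.189 and 3.59 ± 0.345, close to the middle of all protein-coding genes (above 54.7% and 51.5% of them).

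Part of this order rests on the length used. With the length of the 1 transcript chosen per gene, Plk4 (57.6 CPM per kb) passed Tpx2 (45.9), Cltc (33.3) passed Numa1 (28.8), Ckap5 (28.9) came level with Numa1, and Cep192 (5.54) passed Cdk5rap2 (4.65). Tacc3 stayed first by either length, at 244 CPM per kb of that transcript. In knockout, Tpx2 (40.02 ± 4.55 CPM per kb of exon) and Pcnt (38.4 ± 3.77) overlapped between libraries, as they did not in wild type.

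The mRNAs of the spindle domain proteins did not pass the test. TACC3 is the scaffold on which the domain depends, and it links clathrin and chTOG to spindle microtubules. Tacc3 (ENSMUSG00000037313.17) had 695.3, 611.0 and 645.1 CPM in wild-type replicates 1, 2 and 3 and 671.8, 753.1 and 652.8 CPM in knockout replicates 1, 2 and 3. The groups overlapped, and knockout replicate 2 was the highest library. The log2 fold change was 0.09 ± 0.08 (SE), with a 95% interval of -0.09 to 0.27 (edgeR adjusted p = 0.424). That interval corresponds to 93.9% to 121% of the wild-type level. Exons of Tmem129 on the other strand cover 8.14% of the exon length of Tacc3, and the strand setting of the counting is not given.

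Ckap5, which encodes chTOG, a polymerase that adds tubulin at microtubule ends, had 191.9, 188.5 and 197.6 CPM in wild type. Its knockout libraries had 185.3, 174.2 and 201.6 CPM, on both sides of the wild-type values. Its log2 fold change was -0.04 ± 0.08 (95% interval -0.22 to 0.13, edgeR adjusted p = 0.707). The fold change was 0.01 with upper-quartile factors. With GC and length offsets it was 0.22 and just passed as higher (edgeR adjusted p = 0.0496).

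Cltc, the clathrin heavy chain, coats endocytic vesicles in interphase and bridges microtubules with TACC3 and chTOG in the spindle. It had 194.6, 203.9 and 218.0 CPM in wild type and 198.2, 184.0 and 184.6 CPM in knockout. The knockout values were low in replicates 2 and 3 and within the wild-type range in replicate 1. On the log2 scale the fold change was -0.12 ± 0.07 (95% interval -0.29 to 0.05, edgeR adjusted p = 0.246).

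The proportions of the 3 partners were also compared within each library, per kilobase of exon. Tacc3 mRNA exceeded Ckap5 mRNA by a factor of 8.99 ± 0.573 in wild type and 9.93 ± 1.46 in knockout, and Cltc mRNA by 7.60 ± 0.824 and 8.79 ± 0.890. Cltc stood at 1.19 ± 0.0518 times Ckap5 in wild type and 1.13 ± 0.0949 in knockout. The groups overlapped in all 3 ratios (exact two-sided permutation p = 0.6, 0.3 and 0.5, adjusted over 13 ratios 0.709, 0.433 and 0.650). The smallest p that an exact permutation test of 3 against 3 libraries can give is 0.1, so it cannot call a difference here. Of the 13 ratios, 6 did not overlap between the groups, and 47.8% of all single genes tested did not overlap either. Ratios given below as without overlap are read against that share and describe the values only.

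Of the 3 TACC genes, Tacc1 alone passed the test. Tacc1, a paralog of Tacc3 that is also a microtubule plus-end protein, fell from 69.9 ± 3.10 to 42.4 ± 1.34 CPM (log2 fold change -0.72 ± 0.08, edgeR adjusted p = 0.000315). The ratio of Tacc3 to Tacc1 was 34.2, 27.9 and 31.8 in wild type and 52.7, 58.0 and 53.5 in knockout, without overlap (exact permutation p = 0.1, adjusted 0.217). This ratio includes the fall of Tacc1, which was picked for its small p in these same counts. It is not a separate result on Tacc3. Tacc2, named here to complete the family, did not pass, at 576 ± 28.0 CPM in the wild-type libraries and 566 ± 21.4 CPM in those of the knockout (-0.02 ± 0.07 in log2 fold change, edgeR adjusted p = 0.812). The ratio of Tacc3 to Tacc2 was 4.91 ± 0.465 in wild type and 5.30 ± 0.357 in knockout, with overlap (exact permutation p = 0.3, adjusted 0.433). Clathrin light chains pair with the heavy chain, and the ratio of Cltc to Clta was 0.377 ± 0.0426 in wild type and 0.378 ± 0.0311 in knockout.

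Among the proteins of the organizing centres, Pcnt fell. Pericentrin is the large scaffold that recruits gamma-tubulin complexes to these centres. Pcnt (ENSMUSG00000001151.11) had 578.4, 585.5 and 589.6 CPM in wild type and 428.3, 453.3 and 517.2 CPM in knockout. The groups did not overlap, and knockout replicate 3 was nearest to wild type. The coefficient of variation was 0.976% in wild type and 9.84% in knockout. The log2 fold change was -0.33 ± 0.08 (95% interval -0.51 to -0.15, edgeR adjusted p = 0.0132). Leaving out wild-type replicate 3 ended the call (adjusted p = 0.0509), as did leaving out knockout replicate 1 (adjusted p = 0.0599, log2 fold change -0.26), and without knockout replicate 3 the fold change was -0.41.

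Cdk5rap2, a partner of pericentrin that binds and activates the gamma-tubulin ring, did not pass. It had 56.69, 52.23 and 56.27 CPM in wild type and 65.57, 49.61 and 51.38 CPM in knockout. Knockout replicate 1 was the highest library and knockout replicate 2 the lowest. Its log2 fold change was 0.01 ± 0.12 (95% interval -0.25 to 0.28, edgeR adjusted p = 0.950).

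Cep192, which brings Aurora A and Polo-like kinases to the pericentriolar material, had 49.04, 40.43 and 44.96 CPM in wild type. Its knockout libraries had 47.67, 42.82 and 47.17 CPM, all inside the wild-type range. On the log2 scale the fold change was 0.03 ± 0.10 (95% interval -0.20 to 0.26, edgeR adjusted p = 0.830).

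Within libraries the ratio of Pcnt to these partners lay lower in the knockout. It uses the same counts as the fall of Pcnt and is not a separate test of it. Pcnt exceeded Cep192 per kilobase 12.1-, 14.9- and 13.5-fold in wild type and 9.23-, 10.9- and 11.3-fold in knockout. It exceeded Cdk5rap2 10.9-, 12- and 11.2-fold in wild type and 6.99-, 9.78- and 10.8-fold in knockout. Neither ratio overlapped between the groups, although knockout replicate 3 came close to wild type in the ratio to Cdk5rap2 (exact permutation p = 0.1 each, adjusted 0.217).

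Plk4, the kinase that starts centriole duplication in dividing cells and is present in oocytes that have no centrioles, was the most even of the genes in wild type. It had 200.2, 200.7 and 200.7 CPM there and 192.6, 188.6 and 178.7 CPM in knockout. Every knockout library lay below every wild-type library, by a small margin. The log2 fold change of -0.10 ± 0.07 did not pass the test (95% interval -0.25 to 0.05, edgeR adjusted p = 0.267). Plk1, the Polo-like kinase of mitotic and meiotic entry, rose from 62.9 ± 2.66 to 78.1 ± 8.27 CPM (log2 fold change 0.31 ± 0.10, edgeR adjusted p = 0.0359). That call was lost when wild-type replicate 1 (0.0701), 2 (0.118) or 3 (0.127) was left out, or knockout replicate 2 (0.0759) or 3 (0.0786), and also with no scaling factors (0.058), with the replicate number as a block (0.0723) and with GC and length offsets (0.3). The ratio of Plk4 to Plk1 was 1.02 ± 0.0438 in wild type and 0.775 ± 0.112 in knockout, without overlap (exact permutation p = 0.1, adjusted 0.217). It includes the rise of Plk1, which was not kept in those alternatives.

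Of the pole-focusing and assembly factors, Numa1 was called lower and Tpx2 was not. NuMA tethers microtubule minus ends and dynein at the poles. Numa1 (ENSMUSG00000066306.14) had 200.3, 207.7 and 212.6 CPM in wild type and 136.6, 165.7 and 189.1 CPM in knockout. The knockout libraries were all lower and spread widely (coefficient of variation 16.0%, against 2.99% in wild type), with replicate 1 lowest and replicate 3 nearest to wild type. The log2 fold change was -0.34 ± 0.11 (95% interval -0.59 to -0.08, edgeR adjusted p = 0.0450).

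The call of Numa1 lies close to the threshold. It ended when wild-type replicate 1 (adjusted p = 0.0842), 2 (0.107) or 3 (0.125) was left out, and likewise for knockout replicate 1 (0.127) or 2 (0.101), and the fold change was -0.21 without knockout replicate 1. It was also lost with RLE (0.0597) and upper-quartile (0.0835) scaling factors. It was kept without knockout replicate 3 (log2 fold change -0.45, adjusted p = 0.00709) and in DESeq2 (-0.33, adjusted p = 0.0378). Gpsm2, which anchors NuMA at the cortex, fell as well (log2 fold change -0.50, edgeR adjusted p = 0.0294), and the ratio of Numa1 to Gpsm2 overlapped between the groups (5.45 ± 0.901 and 6.04 ± 1.27). Gpsm2 falls outside the rule for named genes and was chosen after its value was seen.

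Tpx2, which is released by the GTPase Ran near chromosomes and activates Aurora A on spindle microtubules, had 198.2, 208.1 and 194.3 CPM in wild type. Its knockout libraries had 209.8, 184.1 and 167.7 CPM, with replicate 1 above all wild-type libraries and replicates 2 and 3 below them. Its log2 fold change was -0.10 ± 0.09 (95% interval -0.30 to 0.11, edgeR adjusted p = 0.453). Its target kinase gene Aurka rose from 323 ± 15.9 to 403 ± 10.2 CPM (log2 fold change 0.32 ± 0.07, edgeR adjusted p = 0.00674). The ratio of Tpx2 to Aurka per kilobase was 0.341, 0.330 and 0.335 in wild type and 0.289, 0.247 and 0.220 in knockout, without overlap (exact permutation p = 0.1, adjusted 0.217). This ratio includes the rise of Aurka, which was picked for its small p in these same counts. It is not a separate result on Tpx2.

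Nek7 had the largest fold change of the 10 genes. NEK7 is a NIMA-related kinase that acts in centrosome separation and spindle assembly, and it also serves the NLRP3 inflammasome. Nek7 (ENSMUSG00000026393.11) had 63.87, 72.46 and 68.41 CPM in wild type and 51.91, 45.26 and 51.27 CPM in knockout. Every knockout library lay below every wild-type library. On the log2 scale the fold change was -0.46 ± 0.09 (95% interval -0.68 to -0.25, edgeR adjusted p = 0.00548), which corresponds to 62.6% to 84.0% of wild type. The call held without any 1 library, with fold changes from -0.52 to -0.39. It was lost when library trends over transcript GC content and length were entered as offsets (-0.18, adjusted p = 0.166). Nek2, another centrosomal kinase of the family, did not pass (log2 fold change 0.04, edgeR adjusted p = 0.744, also named after its value was seen). The ratio of Nek7 to Nek2 was 0.341 ± 0.0133 in wild type and 0.242 ± 0.0394 in knockout, without overlap (exact permutation p = 0.1, adjusted 0.217). This ratio uses the same counts as the fall of Nek7 and is not a separate test of it.

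**Figure D2:**
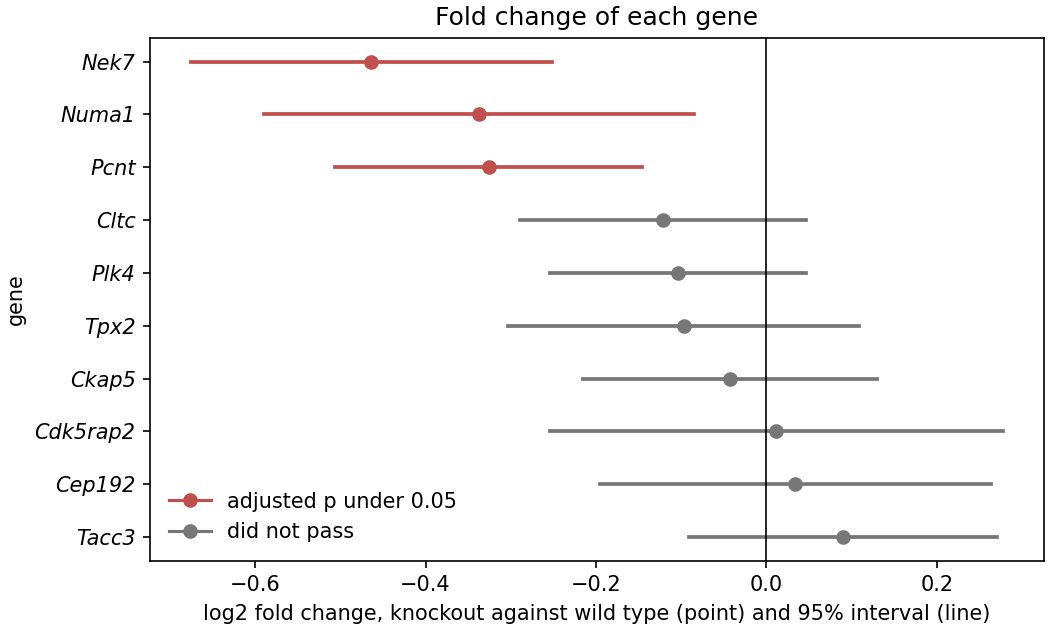
Log2 fold change of each gene in knockout against wild type (points) with its 95% interval (lines), in red where the edgeR adjusted p was under 0.05. The intervals of Nek7, Numa1 and Pcnt lie below 0, and those of the other 7 genes cross it.

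The correction for GC content and length moved the members unevenly. With it, 7 of the 10 fold changes shifted upward, by 0.13 (Tpx2) to 0.29 (Nek7), and 3 shifted downward by at most 0.05. The 3 that shifted downward, Tacc3, Pcnt and Numa1, are the members with the highest GC content of the longest annotated transcript (52.7%, 55.4% and 55.9%). The transcript of Nek7 has the lowest, 40.4%. Pcnt and Numa1 kept their calls (log2 fold change -0.34 and -0.38, edgeR adjusted p = 0.00573 and 0.0226). Ckap5 changed from -0.04 to 0.22 and just passed as higher (adjusted p = 0.0496), and Cep192 reached 0.29 (adjusted p = 0.0568). Cltc, Plk4 and Tpx2 changed sign without passing (0.14, 0.10 and 0.03).

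**Figure D3:**
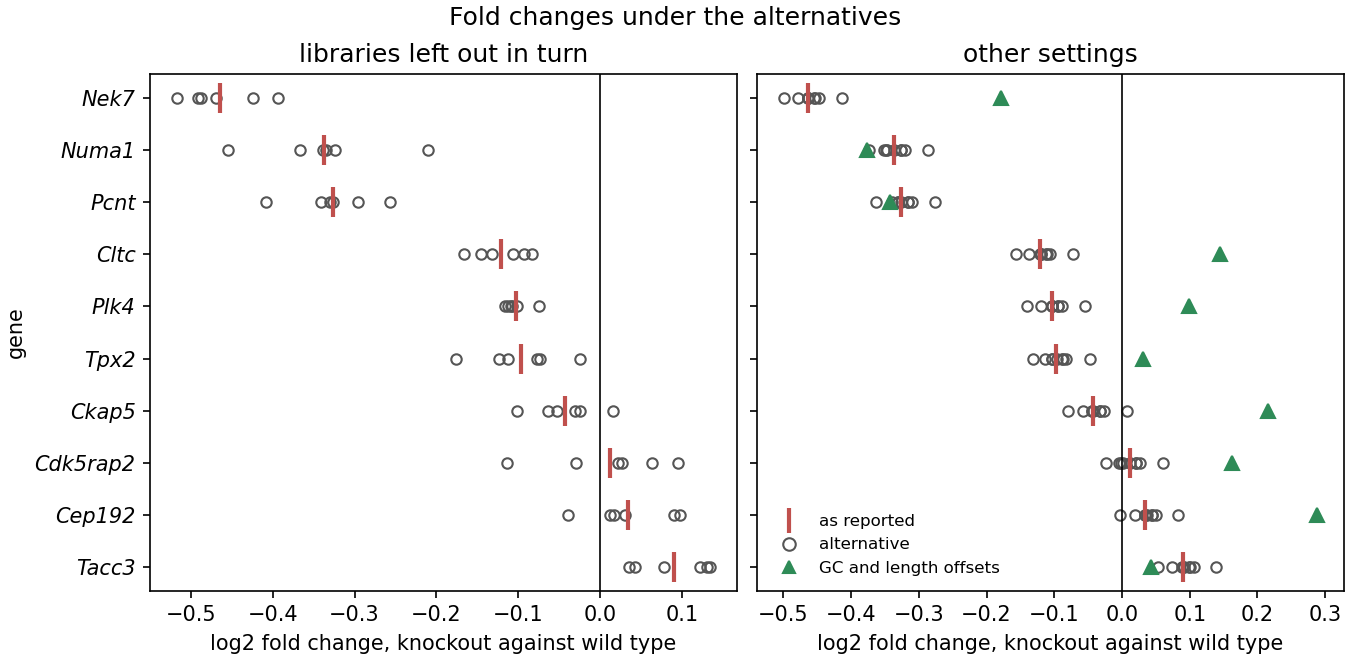
Log2 fold change of each gene as reported (red bars), with each library left out in turn (left, open circles) and under other scaling, filter, test and block settings (right, open circles), with GC and length offsets as green triangles. Pcnt, Numa1 and Nek7 stay below 0 throughout, and the triangles of Ckap5, Cltc, Plk4, Tpx2, Cdk5rap2, Cep192 and Nek7 lie to the right of the reported values.

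Genes that work with these proteins changed in both directions. Of 104 related genes in 6 lists, 100 passed the filter, and 23 were called higher and 18 lower in edgeR, with a median log2 fold change of -0.02. The shares over all genes tested, 14.9% higher and 18.5% lower, apply to these counts and to those of each of the 6 lists, so the 18 lower of 100 sit at the background. With GC and length offsets 22 related genes were higher and 10 lower, when 2604 and 2587 of the 16473 genes were. With no scaling factors 17 were higher and 20 lower, when 2125 and 3243 of the 16473 genes were. Lower calls among the related genes thus outnumbered higher ones with no scaling factors but not with the offsets. Over all genes 60.4% of calls were lower with no scaling factors and 49.8% with the offsets, against 55.5% as reported. The 10 members ranged from -0.46 to 0.09 in log2 fold change and the 100 related genes tested from -0.79 to 1.93. A range tends to widen with the number of genes, so the ranges are not compared.

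The gamma-tubulin ring nucleates microtubules and augmin attaches it to existing ones. Of 17 tested genes of this list 3 were higher and 4 lower, with a median log2 fold change of -0.12. Tubg2, which encodes a gamma-tubulin, rose from 127.5 ± 8.52 to 214 ± 25.1 CPM (0.75 ± 0.10, edgeR adjusted p = 0.000619). Mzt1, a small subunit of the ring, fell from 46.3 ± 0.481 to 26.8 ± 2.27 CPM (-0.79 ± 0.10, edgeR adjusted p = 0.000498). The augmin subunit Haus3 fell from 226 ± 14.5 to 160.3 ± 9.32 CPM (-0.50 ± 0.08).

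Of 16 partners of TACC proteins, chTOG, clathrin and microtubule plus ends, 3 were higher and 3 lower, with a median of -0.03. Slain1, which recruits chTOG to growing ends, rose from 885 ± 55.0 to 1469 ± 92.6 CPM (0.73 ± 0.07, edgeR adjusted p = 0.000180). Ckap5 itself passed as higher only with GC and length offsets. Spag5, which encodes astrin, rose from 28.4 ± 2.27 to 46.4 ± 0.158 CPM (0.71 ± 0.10). Tacc1, given above, was among the genes that fell.

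Pericentriolar and centriole proteins had 5 of 23 higher and 4 lower, with a median of -0.13. Rttn, a centriole protein, fell from 205.5 ± 21.3 to 129 ± 8.67 CPM (-0.67 ± 0.09, edgeR adjusted p = 0.000851). Odf2, a centriolar appendage protein, rose from 165 ± 5.98 to 223 ± 7.52 CPM (0.44 ± 0.07) and Cep250, a centrosome linker, from 6.19 ± 1.44 to 11.4 ± 1.57 CPM (0.88 ± 0.21).

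Ran, Aurora A and other assembly factors had 6 of 17 genes higher and 1 lower (Kif11), with a median of 0.18, against 14.9% and 18.5% and a median of 0.00745 over all genes tested. Besides Aurka, the GTPase gene Ran rose from 42.8 ± 7.66 to 61.2 ± 2.63 CPM (0.52 ± 0.13, edgeR adjusted p = 0.0158). Prc1, which bundles antiparallel microtubules, rose from 203 ± 8.64 to 269.6 ± 33.4 CPM (0.41 ± 0.09, edgeR adjusted p = 0.0103), which missed the threshold when wild-type replicate 3 was left out (0.0528). Tpx2, which acts between Ran and Aurora A, did not pass.

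NuMA and dynein partners had 4 of 14 higher and 4 lower, with a median of 0.18. The dynactin subunit Dctn1 rose from 3.64 ± 1.23 to 13.9 ± 2.04 CPM (1.93 ± 0.26, edgeR adjusted p = 0.000752) and the dynein regulator Nde1 from 28.8 ± 2.47 to 49.3 ± 2.804 CPM (0.78 ± 0.10). The dynein intermediate chain Dync1i2 fell from 79.3 ± 1.502 to 52.3 ± 0.756 CPM (-0.60 ± 0.08). Among NIMA and Polo-like kinases 2 of 13 were higher and 2 lower, with a median of -0.28. Plk3 rose from 2.96 ± 0.425 to 8.04 ± 0.342 CPM (1.44 ± 0.19), and Nek1, a relative of Nek7, fell from 49.5 ± 0.633 to 31.9 ± 3.94 CPM (-0.63 ± 0.11, edgeR adjusted p = 0.00253).

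**Figure D4:**
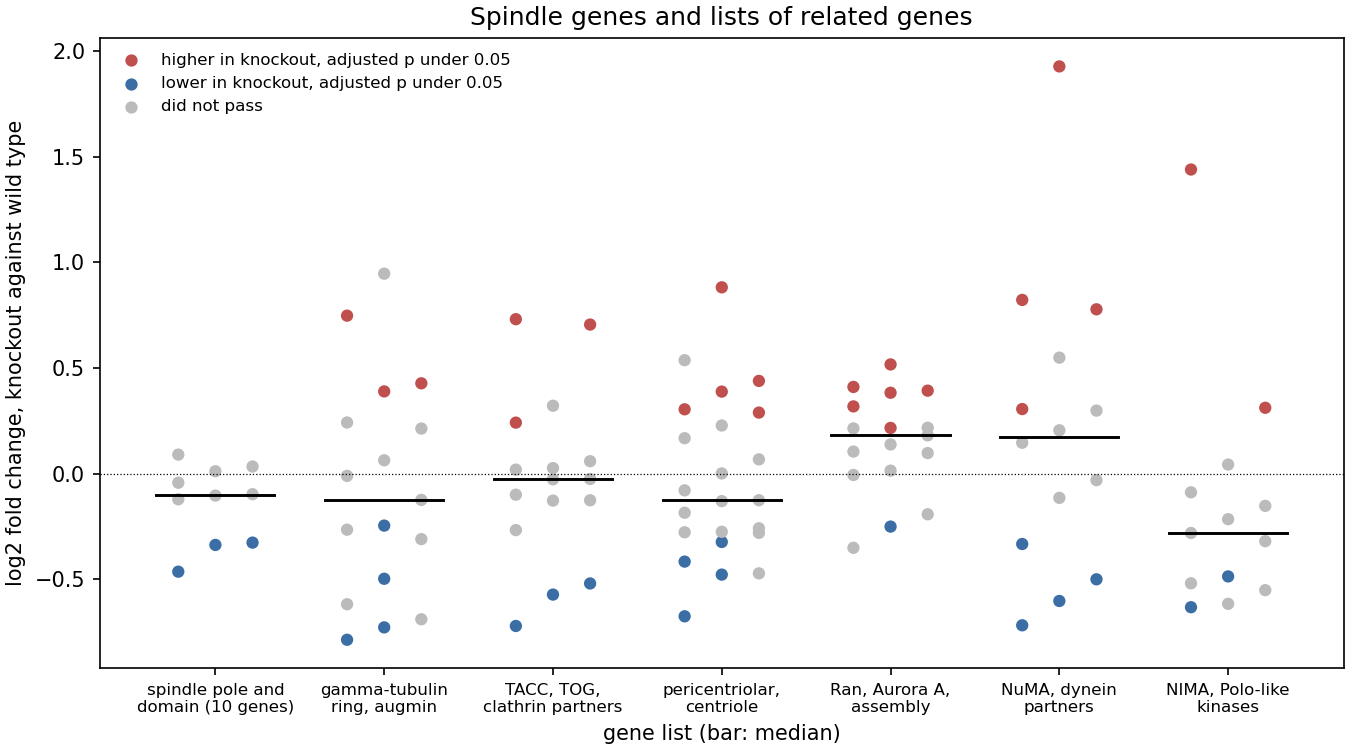
Log2 fold change in knockout against wild type of the 10 spindle pole and domain genes and of the tested genes of 6 related lists, 1 point per gene, coloured by the edgeR call, with a bar at each list's median. Each related list holds points called higher and points called lower, and the 10 genes lie between -0.46 and 0.09.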

How the data were processed

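PolyA RNA of 6 pools of oocytes was sequenced with a single-cell library kit, per the labels. Each library has 1 deposited table of raw, unnormalized gene counts. The submitters' processing notes name bcl2fastq 2.20.0.422, cutadapt 2.8, STAR 2.7.8a, HTSeq 0.13.5 and mm39, but no annotation release or strand setting. Summary rows of the counting (23.1% to 24.8% of reads) stayed out of library sizes and tests. Depth limits little here, since each member had at least 1425 counts in every library.

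Members and lists were chosen with earlier results of these data known. Named related genes are up to 3 called genes per list with the smallest adjusted p, or the 2 with the smallest p where fewer than 2 are called. Genotype was the only term in edgeR 4.0.16 (R 4.3.3, TMM, filterByExpr, quasi-likelihood, two-sided), with DESeq2 1.42.0 and limma 3.58.1 as alternatives. Standard errors are the fold change over the root of F. The steps were tested on simulated counts with 200 changed genes and the same spread for every gene in both groups. That spread was smaller than in these libraries (common biological coefficient of variation 21.2%), so the test does not cover their larger and unequal spread. Pairs of libraries of 1 group differed by 12.8 to 39.9 times the sampling noise (chi-square over its degrees of freedom), so none was counted as a duplicate. Exon and transcript lengths, GC content and 3' ends come from GENCODE M21 (GRCm38), which covered 99.7% of tested genes, and chromosome names from the same release.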

Additional observations from a re-analysis of the deposited data

How the results depend on the processing

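Of the calls and counts under 18 alternatives, these moved. With an adjusted p of 0.01 the genes called were 1171 higher and 1861 lower, 1 member lower (Nek7) and 10 related genes higher and 9 lower. Tested against a 1.5-fold change they were 417 and 1067, 0 members lower and 2 and 0 related genes. Lower calls outnumbered higher ones over all genes except with upper-quartile factors (2811 higher, 2780 lower) and GC and length offsets (2604, 2587). The related genes went from 23 higher and 18 lower to 17 and 20 with no scaling factors, when all genes gave 2125 and 3243. GC and length offsets called 1 member higher (Ckap5) and 10 related genes lower. Both kinds of count shrink by construction in the stricter tests, and the cause of the others was not tested. Leaving out each library gave 1541 to 2509 genes higher (1541 without wild-type replicate 3) and 2285 to 3125 lower. It gave 1 to 3 members lower (1, Nek7, without wild-type replicate 3 or knockout replicate 1), 13 to 23 related genes higher (13, 14 and 13 without wild-type replicates 1, 2 and 3) and 11 to 18 lower (11 without wild-type replicate 1 or 3). The direction changed, with no call, for Ckap5 with upper-quartile factors (0.00713) and without knockout replicate 2 (0.0157, the highest of -0.101 to 0.0157 with 1 library left out), Cep192 with no scaling factors (-0.00357) and without wild-type replicate 2 (-0.0399 in a range up to 0.097), and Cdk5rap2 with no scaling factors (-0.0241), no filter (-0.00477), limma-voom (-0.00113) and without wild-type replicate 2 (-0.0300) or knockout replicate 1 (-0.114 in a range up to 0.0947). With GC and length offsets it changed for Tpx2 (0.0307), Cltc (0.145) and Plk4 (0.0995), none called, and for Ckap5 (0.216). Of 18 named related genes, 14 kept call and direction under every alternative other than the 1.5-fold test. They were picked for the smallest adjusted p in these same counts, which favours that outcome, so it does not speak for the other related genes. Same-numbered libraries did not deviate together (correlations -0.00898, -0.0420 and -0.0252), so the numbers were not taken as pairs. The replicate block called 3 members lower, 0 higher, 18 related genes higher and 16 lower. Over all 16473 genes it called 2078 higher and 2760 lower. Where 1 library was left out of a group, the remaining pair shared its spread with the other group.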
